A study of Mus musculus with 12 samples.

Results

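Transcripts of 9 Hedgehog pathway genes were followed in mouse fibroblasts exposed to cancer-cell vesicles. The genes were Hhip, Ptch1, Smo, Gli1, Gli2, Gli3, Gas1, Sufu and Boc, and each had 1 row among the 32544 gene symbols of the table. They were chosen by name as a pathway, and the pathway was selected on the measured Hhip difference between vesicles from CRIPTO-depleted and control donor cells, so that contrast is described for all members and not tested. Of the 9 genes, 8 passed the filter on low counts, each of them in every group on its own, and Gli1 did not pass.

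The recipient cells in all 4 groups were 3T3, an immortalised mouse fibroblast line, and each group had 3 libraries. The untreated group received no vesicles, and the labels name no vehicle. The other groups received extracellular vesicles (EVs), small membrane packages shed by cells, for 24 h. Their donors were MDA-MB-468 cells, a human breast cancer line: a control line (shCon), a line with CRIPTO knocked down (shCr) or a line overexpressing CRIPTO (CrOE), a cell-surface protein of the EGF-CFC family. The EVs were therefore human and the measured transcripts were mapped to mouse genes; whether each donor line was 1 clone is not given in the labels. Nothing in the labels says that the 3 libraries of a group came from separate cultures, so p-values measure only the spread between these libraries.

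Hedgehog ligands bind the receptor Patched 1 (Ptch1), which otherwise holds the membrane protein Smoothened (Smo) inactive. Free Smoothened acts in the primary cilium and, through release from Suppressor of fused (Sufu), lets the Gli transcription factors switch on target genes. Gli1, Ptch1 and Hhip are textbook targets of the pathway, and the Hedgehog-interacting protein made from Hhip in turn binds and blocks the ligands. Fibroblasts are a classical receiving cell of Hedgehog signals, and 3T3 cells are widely used to assay the pathway.

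The libraries held 25960054 to 37774020 estimated counts. All 11 fibroblast markers of a fixed list passed the filter, with summed levels of 20137 to 21692 CPM (counts scaled to a common library size, with TMM factors) in untreated cells, 24839 to 25169 with shCon EVs, 16054 to 17932 with shCr EVs and 8513 to 8891 with CrOE EVs. The fibroblast gene Lum averaged 0.00970 CPM with CrOE EVs and 3.82 to 5.59 CPM in the other groups. The 9 epithelial markers summed to 2.43 to 3.996 CPM over all libraries, with Epcam at 0 counts. The 6 immune markers summed to 46.2 to 56.8 CPM in untreated cells, 79.7 to 90.1 with shCon EVs, 127 to 191 with shCr EVs and 3.90 to 4.69 with CrOE EVs. Lyz2 alone averaged 46.9, 78.0, 146 and 1.25 CPM in these groups. The 5 endothelial markers summed to 2.21 to 6.12 CPM outside the CrOE EV libraries and to 17.4 to 20.2 CPM in them. Vwf alone averaged 1.82 CPM in untreated cells and 4.58, 3.84 and 16.0 CPM with shCon, shCr and CrOE EVs. Kdr averaged 0.136, 0.559, 0.764 and 0.403 CPM in the same order. The part of these shifts in the results on Hedgehog genes was not tested.

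The CrOE EV libraries stood apart from the rest: 73.7% of all 14279 tested genes were called between them and untreated cells. The matching shares were 38.1% for shCon EVs and 37.3% for shCr EVs. A call is an adjusted p under 0.05 in the quasi-likelihood test of edgeR, adjusted by Benjamini-Hochberg over all tested genes. Counts of called members below are to be read against these shares. The libraries are bulk samples, so fewer cells expressing a gene and less RNA per cell cannot be told apart.

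The first question was how EVs of each donor line changed the pathway genes relative to untreated cells. With shCon EVs 6 of the 7 tested members were called lower, against 20.2% of all genes called lower. These were Ptch1, Gli2, Gli3, Gas1, Sufu and Boc. With shCr EVs 5 of 7 were called lower, against 18.8% of all genes, and with CrOE EVs 7 of 8, against 37.0% of all genes. No member was called higher in any of the 3 comparisons, against 18.0%, 18.4% and 36.7% of all genes (0 by edgeR also at an unadjusted p under 0.05, and 0 by DESeq2). The median log2 fold change of the 7 members other than Hhip was -0.30 with shCon EVs, -0.33 with shCr EVs and -0.82 with CrOE EVs, where the medians of all tested genes were 0.0069, 0.020 and 0.0078. Of the tested members, 0 of 7 were called at least 2-fold lower with shCon EVs (3.54% of all genes) and 0 of 7 with shCr EVs (3.53%); Hhip, also over 2-fold lower in both, was not tested there and is not in these counts. With CrOE EVs, where Hhip was tested, 3 of 8 were called at least 2-fold lower (18.7% of all genes): Hhip, Gas1 and Gli2. The 3 comparisons share the untreated libraries, so their likeness is not independent evidence.

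**Figure D1:**
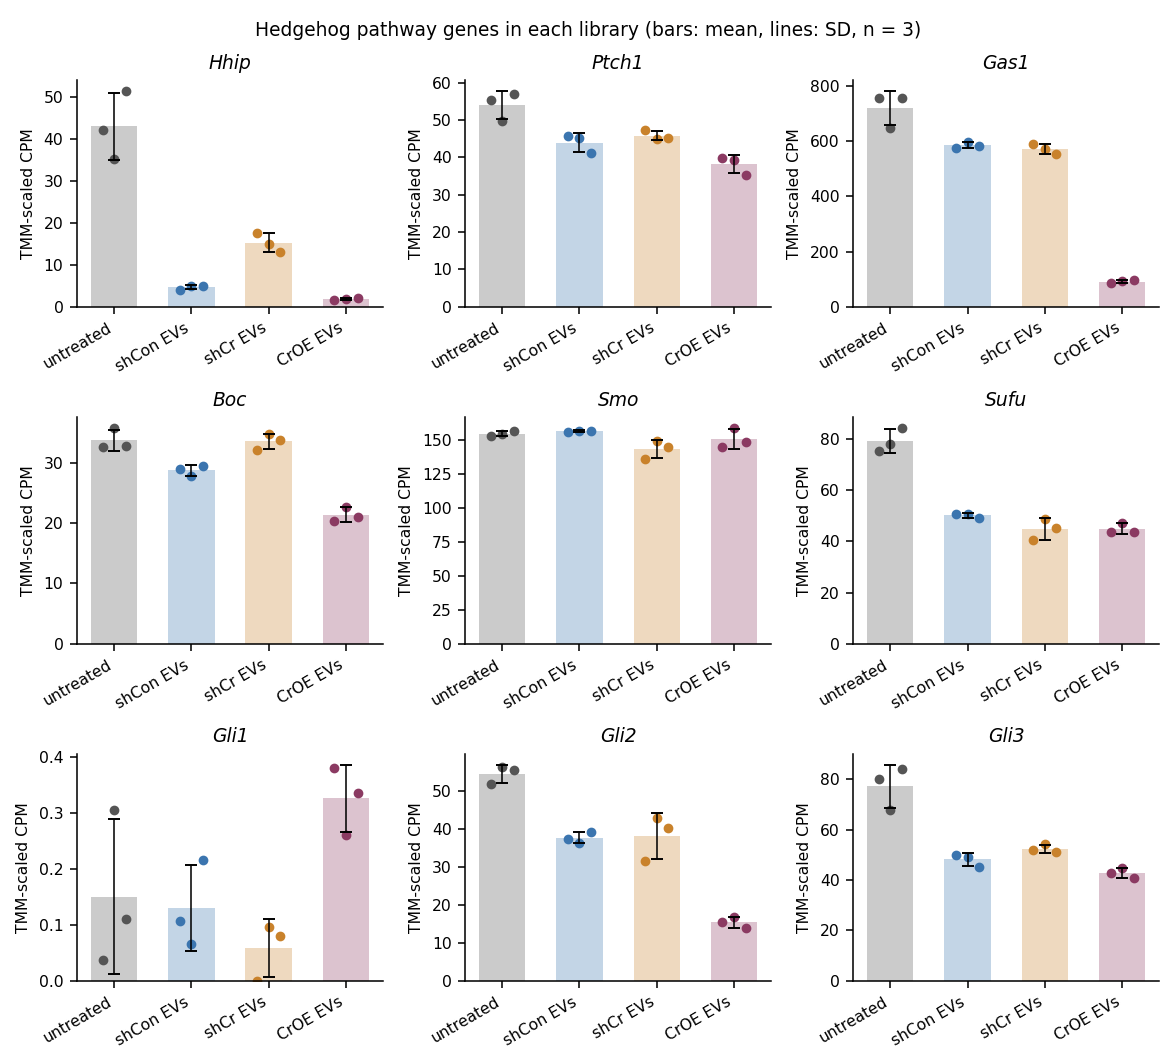
TMM-scaled CPM (vertical axes, each from 0) of the 9 members in the 4 groups; points are libraries, bars are means and lines are SD with n = 3. Hhip falls from 43.0 CPM in untreated cells to 1.86 CPM with CrOE EVs, Smo lies between 136 and 159 CPM in all libraries, and Gli1 is at 0.381 CPM or less.

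Hhip spanned the widest range as a ratio of group means among the 8 members that passed the filter. It was at 42.2, 35.3 and 51.4 CPM in the untreated libraries, at 4.04, 4.88 and 4.86 CPM with shCon EVs, at 17.6, 15.1 and 13.0 CPM with shCr EVs and at 1.62, 1.89 and 2.08 CPM with CrOE EVs. The 4 groups did not overlap, and their order was untreated, shCr, shCon and CrOE EVs. With CrOE EVs, whose libraries are not in the contrast that singled out the gene, Hhip fell 23.0-fold below untreated cells (log2 fold change -4.52, SE 0.17, adjusted p = 7.73e-11, edgeR's quasi-likelihood test). The members were chosen with earlier results of these data known, so this p-value may not be free of that choice. Its 51 to 74 counts in the CrOE EV libraries lay well above the detection floor of 3 counts.

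The remaining differences of Hhip are given as values without a test. Its fitted level was 10.7% of the untreated level with shCon EVs and 35.3% with shCr EVs. The level with shCr EVs was 3.30-fold that with shCon EVs, the value by which the gene was noticed. In that comparison the log2 fold change of Hhip was 1.72, and no call or rank is given because the gene was chosen on it. Of all genes, 8.73% were called there, 5.22% higher and 3.51% lower (0.357% at least 2-fold lower). With CrOE EVs Hhip stood at 40.7% of its level with shCon EVs and 12.3% of that with shCr EVs.

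The promoter letters of the 3 members with the largest falls with CrOE EVs (Hhip, Gas1 and Gli2) are shown because they are the stretches next to the start sites of the genes whose transcripts moved most. They come from RefSeq on build GRCm38.p6, which is older than the mm39 build named in the submitters' processing notes, and cover 250 bases before the start, read 5′ to 3′ on the gene's strand. All 3 genes are on the minus strand: Hhip at chr8:80058009-80058258, Gas1 at chr13:60177536-60177785 and Gli2 at chr1:119053620-119053869. Capitals mark GC boxes (GGGCGG, or CCGCCC on the other strand).
Hhip: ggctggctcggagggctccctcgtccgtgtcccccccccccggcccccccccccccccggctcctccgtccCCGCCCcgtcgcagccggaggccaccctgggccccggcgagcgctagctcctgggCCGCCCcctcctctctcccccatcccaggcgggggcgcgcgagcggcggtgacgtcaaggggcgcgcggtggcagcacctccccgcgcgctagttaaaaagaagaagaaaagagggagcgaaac
Gas1: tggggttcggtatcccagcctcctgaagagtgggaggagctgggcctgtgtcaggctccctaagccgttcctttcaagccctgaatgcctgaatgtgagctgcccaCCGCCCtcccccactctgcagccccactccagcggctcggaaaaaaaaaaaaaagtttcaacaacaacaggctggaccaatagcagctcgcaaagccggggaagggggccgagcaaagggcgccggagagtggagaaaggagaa
Gli2: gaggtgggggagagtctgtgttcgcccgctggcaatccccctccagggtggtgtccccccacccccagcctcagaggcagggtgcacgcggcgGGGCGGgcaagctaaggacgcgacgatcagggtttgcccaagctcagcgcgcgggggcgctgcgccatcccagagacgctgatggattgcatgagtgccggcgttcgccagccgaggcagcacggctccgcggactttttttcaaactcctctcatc

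The promoter table held 7 of the 9 members, all but Gli1 and Boc. The 9-letter GLI motif GACCACCCA (TGGGTGGTC on the other strand) was found in 0 of these 7 windows of 300 bases, which reach 250 bases before to 50 after the start, and in 0.253% of all 32817 windows. Its 7-letter core CCACCCA, which the longer motif contains, was in 0 of 7 and in 9.31% of all windows. No match says only that these letters are not in these windows. A GC box was in 6 of 7 (all but Smo), against 35.6% of all windows, with 2 in that of Hhip and 2 in that of Gli3. G and C made up 73.7% of the Hhip window and 76.3% of the Ptch1 window, with a median over all windows of 52.7%, and the 7 windows ranged from 56.3% to 76.3%. The GC box was searched after the letters had been seen.

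Ptch1, the ligand receptor and itself a pathway target, moved far less than Hhip. Its libraries were at 55.3, 49.8 and 56.9 CPM in untreated cells, 45.8, 45.1 and 41.1 CPM with shCon EVs, 47.3, 44.98 and 45.2 CPM with shCr EVs and 39.9, 39.2 and 35.4 CPM with CrOE EVs. Every EV library lay below every untreated library. Ptch1 fell with shCon EVs (log2 fold change -0.30, SE 0.07, adjusted p = 0.00441), with shCr EVs (-0.24, adjusted p = 0.0151) and with CrOE EVs (-0.50, adjusted p = 2.06e-05; edgeR throughout). Leaving out untreated replicate 3 ended the call with shCr EVs (adjusted p = 0.0615, edgeR).

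Gas1 and Boc encode co-receptors that help Patched 1 bind ligand. Gas1 was at 756, 649.6 and 756 CPM in untreated cells, 576, 597 and 583 CPM with shCon EVs, 591, 574 and 555 CPM with shCr EVs and 85.6, 92.2 and 96.3 CPM with CrOE EVs. The CrOE EV libraries were far below all others, and the shCon and shCr EV libraries overlapped each other. Gas1 fell 7.89-fold with CrOE EVs (log2 fold change -2.98, SE 0.07, adjusted p = 1.16e-12, edgeR) and only slightly with shCon EVs (-0.30, adjusted p = 0.003) and shCr EVs (-0.33, adjusted p = 0.0015). In GENCODE M21, 19.9% of the exon bases of Gas1 overlap an exon of a gene on the opposite strand (Gm48488), and whether the counting used strand is not given in the sources used here.

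Boc was at 32.6, 35.8 and 32.7 CPM in untreated cells, 29.0, 27.7 and 29.5 CPM with shCon EVs, 32.1, 34.7 and 33.8 CPM with shCr EVs and 20.4, 22.7 and 21.0 CPM with CrOE EVs. The shCr EV libraries overlapped the untreated ones, and the other EV groups lay below. Boc fell with CrOE EVs (log2 fold change -0.66, SE 0.06, adjusted p = 7.44e-07, edgeR) and with shCon EVs (-0.23, adjusted p = 0.012). The latter was no call without shCon EV replicate 2 (adjusted p = 0.0572). With shCr EVs its log2 fold change was -0.0063, with a 95% interval of -0.14 to 0.13.

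Smo, the signal transducer, was the member for which no difference was called. It was at 153, 155 and 157 CPM in untreated cells, 156, 157 and 157 CPM with shCon EVs, 136, 149.6 and 145 CPM with shCr EVs and 145, 159 and 149 CPM with CrOE EVs. The shCr EV libraries all lay below the untreated ones without a call (adjusted p = 0.112, edgeR), and the other EV groups overlapped them. The 95% intervals of its log2 fold change against untreated cells were -0.093 to 0.13 for shCon EVs, -0.22 to 0.00050 for shCr EVs and -0.15 to 0.071 for CrOE EVs.

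Sufu, the cytoplasmic inhibitor that holds Gli proteins, fell with all 3 kinds of EV. It was at 75.3, 77.9 and 84.3 CPM in untreated cells, 50.7, 50.8 and 49.2 CPM with shCon EVs, 40.6, 48.8 and 45.1 CPM with shCr EVs and 43.8, 47.3 and 43.6 CPM with CrOE EVs. Every EV library lay below the untreated libraries. The log2 fold changes were -0.66, -0.82 and -0.82 in that order (adjusted p = 1.14e-05, 1.44e-06 and 2.09e-07, edgeR).

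Gli2 and Gli3 encode the Gli factors that respond first to the pathway, Gli2 mainly as an activator and Gli3 mainly as a repressor. Gli2 was at 51.9, 56.3 and 55.5 CPM in untreated cells, 37.4, 36.4 and 39.2 CPM with shCon EVs, 31.4, 43.0 and 40.3 CPM with shCr EVs and 15.5, 16.8 and 13.8 CPM with CrOE EVs. The CrOE EV libraries were the lowest, and those of the other EV groups lay between them and the untreated libraries. Gli2 fell 3.55-fold with CrOE EVs (log2 fold change -1.83, SE 0.11, adjusted p = 4.86e-09, edgeR), 1.45-fold with shCon EVs (adjusted p = 0.00121) and 1.43-fold with shCr EVs (adjusted p = 0.0015).

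Gli3 was at 80.0, 67.6 and 83.9 CPM in untreated cells, 50.1, 49.2 and 45.3 CPM with shCon EVs, 51.7, 54.3 and 51.1 CPM with shCr EVs and 42.7, 44.6 and 40.8 CPM with CrOE EVs. No EV library reached the lowest untreated one. Gli3 fell by 0.68 on the log2 scale with shCon EVs, by 0.56 with shCr EVs and by 0.85 with CrOE EVs (adjusted p = 1.91e-05, 8.26e-05 and 3.51e-07, edgeR).

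Gli1, the Gli factor whose own transcription is the usual readout of an active pathway, was close to the detection floor. It had 1, 8 and 3 counts in the untreated libraries, 3, 2 and 6 with shCon EVs, 0, 3 and 3 with shCr EVs and 12, 9 and 12 with CrOE EVs. The CrOE EV libraries had the most counts, but in CPM (0.381, 0.262 and 0.337) they overlapped untreated replicate 2 at 0.305. It was not tested with the filter; without a filter it was called higher with CrOE than with shCr EVs (adjusted p = 0.0102, edgeR) and not against untreated cells (adjusted p = 0.19). Exons of genes on the opposite strand, among them Arhgap9, overlap 6.55% of its exon bases.

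**Figure D2:**
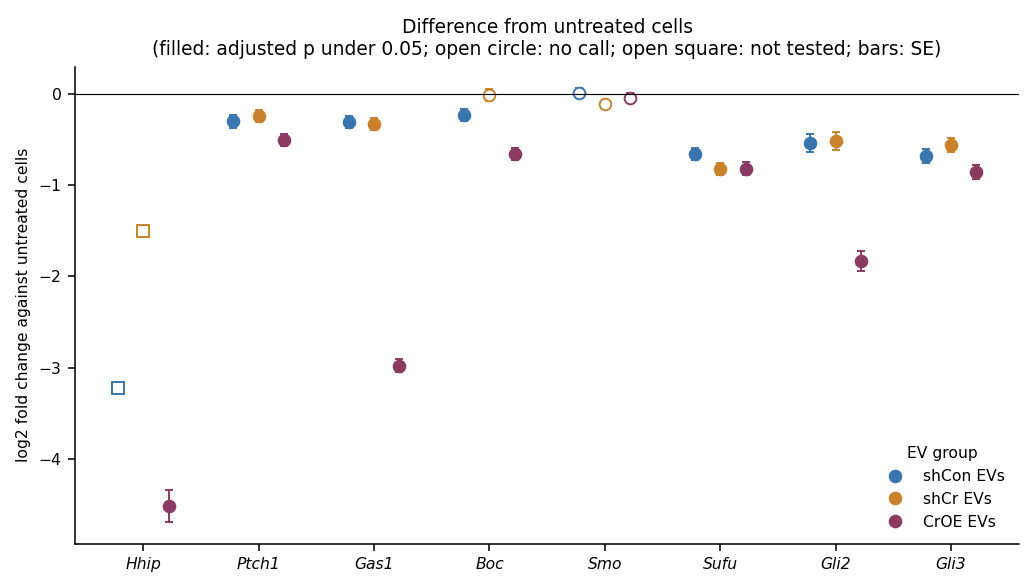
Log2 fold change against untreated cells (vertical axis) of the 8 members that passed the filter, for shCon, shCr and CrOE EVs; lines are SE, filled circles are calls, open circles are no calls and open squares are values of Hhip that were not tested. Hhip, Gas1 and Gli2 reach -4.52, -2.98 and -1.83 with CrOE EVs, while Smo lies near 0.

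The second question was how cells with CrOE EVs differed from those with each other kind of EV, tested as CrOE against shCon and shCr EVs. In these, 72.6% and 73.9% of all genes were called in either direction. No group is labelled as a vector control for the CrOE donor line. CRIPTO overexpression therefore cannot be told apart from other differences between the donor lines. Against shCon EVs 4 of 7 tested members were lower (36.1% of all genes were called lower) and 0 were higher, and against shCr EVs 5 of 7 were lower (37.0% of all genes) and 0 higher (36.5% and 36.9% of all genes; 0 at an unadjusted p under 0.05 by edgeR, 0 by DESeq2). Called at least 2-fold lower were 2 of the 7 tested members in each, Gas1 and Gli2 (17.9% and 18.6% of all genes); Hhip, also over 2-fold lower in both, was not tested. Gas1 was 6.40-fold lower than with shCon EVs and 6.27-fold lower than with shCr EVs (adjusted p = 3.29e-12 and 3e-12, edgeR). Gli2 was 2.45-fold and 2.49-fold lower (adjusted p = 1.69e-07 and 1.22e-07). Boc was 1.35-fold and 1.57-fold lower (adjusted p = 4.69e-05 and 7.52e-07).

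The other members differed less between CrOE EVs and the other EVs. Ptch1 was lower than with shCon EVs by a log2 fold change of -0.21 (adjusted p = 0.0164, edgeR) and than with shCr EVs by -0.26 (adjusted p = 0.00351). The former was no call without CrOE EV replicate 3 (adjusted p = 0.0856, edgeR), shCon EV replicate 1 (0.0568) or shCon EV replicate 2 (0.0573). Gli3 was lower than with shCr EVs (-0.29, adjusted p = 0.00363). Gli3 and Sufu just missed the threshold against shCon EVs (adjusted p = 0.0565 and 0.0533, edgeR). Both were calls with DESeq2 (0.0437 and 0.0403), with median-of-ratios scaling (0.045 and 0.0429) and when only these groups were modelled (0.00299 and 0.00137). Other settings moved them away from the threshold. Adjusted p (edgeR or DESeq2) ran from 0.00299 to 0.175 for Gli3 and from 0.00137 to 0.151 for Sufu over the settings tried. Sufu differed by 0.0023 on the log2 scale between CrOE and shCr EVs, with a 95% interval of -0.15 to 0.15.

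Between shCr and shCon EVs, the comparison that led to the choice of genes, the members other than Hhip lay close together. Log2 fold changes were 0.06 for Ptch1, 0.02 for Gli2, -0.03 for Gas1, 0.12 for Gli3, 0.22 for Boc, -0.12 for Smo and -0.16 for Sufu. The libraries of the 2 groups overlapped for Ptch1, Gli2 and Gas1 and not for Gli3, Boc, Smo and Sufu. How many of all tested genes lacked overlap was not counted, so whether this is unusual cannot be said. The median over the 8 members, Hhip included, was 0.041, beside 0.0043 for all tested genes.

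Levels of different genes were compared per kb of exon, with lengths from GENCODE M21. In untreated cells Gas1 was the most abundant at 243 ± 20.8 CPM per kb (SD, n = 3), followed by Smo at 27.6 ± 0.324 and Sufu at 10.3 ± 0.602. Gli3, Gli2 and Boc came next at 8.05 ± 0.887, 7.94 ± 0.338 and 7.57 ± 0.401 CPM per kb, and neighbours among them overlapped in their libraries. Hhip at 4.74 ± 0.890 and Ptch1 at 3.81 ± 0.265 overlapped as well, and Gli1 was last at 0.0302 ± 0.0278. With CrOE EVs Gas1 and Smo were nearly level, at 30.9 ± 1.83 and 26.9 ± 1.30 CPM per kb, without overlap. Hhip was then at 0.205 ± 0.0255 CPM per kb and remained above Gli1 at 0.0654 ± 0.0120. Gli2 and Gli3, whose libraries overlapped in untreated cells, did not overlap with CrOE EVs, at 2.23 ± 0.219 and 4.45 ± 0.197 CPM per kb. They did not overlap with shCon EVs either, with Gli2 the higher there (5.48 ± 0.205 and 5.02 ± 0.265), and overlapped with shCr EVs.

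**Figure D3:**
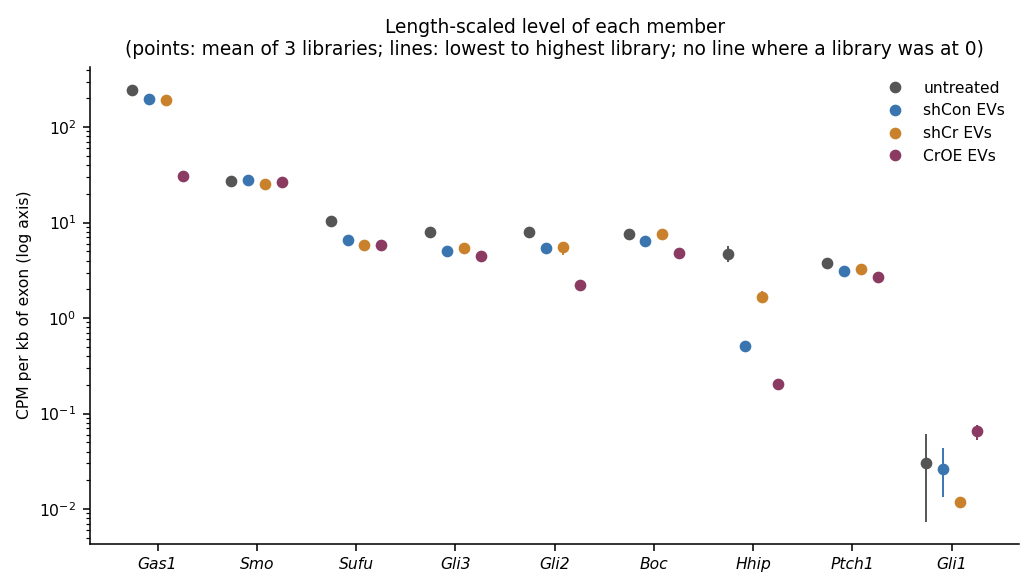
CPM per kb of exon (log axis) of the 9 members in the 4 groups, ordered by the untreated level; points are means of 3 libraries and lines run from the lowest to the highest library. Gas1 drops from 243 to 30.9 CPM per kb with CrOE EVs, next to Smo at 26.9, and Hhip spans 4.74 to 0.205.

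A further 70 pathway genes in 5 lists were counted to place the members, and 64 of them passed the filter. With shCon EVs 13 rose and 19 fell, with shCr EVs 6 rose and 20 fell, and with CrOE EVs 27 rose and 27 fell. The shares of all genes called higher and lower were 18.0% and 20.2% with shCon EVs, 18.4% and 18.8% with shCr EVs, and 36.7% and 37.0% with CrOE EVs. Their median log2 fold changes were -0.032, -0.045 and 0.0044. Without shCr EV replicate 1, 12 rather than 6 genes were called higher with shCr EVs.

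Hedgehog ligands were at or near the floor. Shh and Dhh had at most 3 counts in any library, and Ihh, the third ligand, had at most 6. Scube1 and Scube2, secreted helpers of ligand release, had at most 3 and 4 counts. Their relative Scube3 fell in all EV groups, from 3.16 ± 0.602 CPM (SD, n = 3) to 2.08 ± 0.301 with shCon, 1.77 ± 0.286 with shCr and 1.55 ± 0.0670 with CrOE EVs (adjusted p = 0.0184, 0.00262 and 0.000206, edgeR). Disp1, which exports ligand from producing cells, rose with CrOE EVs from 39.6 ± 2.12 to 49.7 ± 1.62 CPM (adjusted p = 0.000965), and its relative Disp2 fell from 1.70 ± 0.0904 to 0.205 ± 0.154 CPM (adjusted p = 3.25e-06). Hhat, the ligand acyltransferase, rose with shCon EVs from 15.7 ± 1.36 to 18.3 ± 0.141 CPM (adjusted p = 0.0481).

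Among the other receptors, Cdon, a co-receptor related to Boc, was at 228, 177 and 225 CPM in untreated cells and at 37.8, 42.2 and 35.8 CPM with CrOE EVs (log2 fold change -2.44, SE 0.10, adjusted p = 2.14e-10, edgeR). It was no call with shCon EVs (243 ± 12.5 CPM, SD, n = 3; adjusted p = 0.104) or shCr EVs (217 ± 17.8 CPM; adjusted p = 0.749), and CrOE EVs differed from both (log2 fold changes -2.66 and -2.49, adjusted p = 1.27e-10 and 1.8e-10). Gas1, Boc and Cdon were thus each lower with CrOE EVs than in any other group. Of all genes, 37.0%, 36.1% and 37.0% were called lower with CrOE EVs against untreated cells, shCon EVs and shCr EVs. Of the 3 genes in the list of other receptors and co-receptors, 1 was higher and 2 were lower with CrOE EVs than in untreated cells. Lrp2, an endocytic ligand receptor, rose from 0.666 ± 0.221 to 3.54 ± 0.565 CPM with CrOE EVs (adjusted p = 5.95e-07) and to 1.40 ± 0.187 with shCon EVs (adjusted p = 0.00468).

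Of 22 genes of the cilium and of signal relay at Smoothened, 6 were higher and 3 lower with shCon EVs, 4 and 5 with shCr EVs and 10 and 7 with CrOE EVs. Beside these stand 18.0% and 20.2%, 18.4% and 18.8%, and 36.7% and 37.0% of all genes. Evc, part of the ciliary complex that binds Smoothened, fell with CrOE EVs from 70.3 ± 4.22 to 11.9 ± 1.42 CPM (SD, n = 3; adjusted p = 2.81e-10, edgeR). Gpr161, a ciliary receptor that restrains the pathway, rose from 20.6 ± 1.05 to 46.1 ± 2.17 CPM (adjusted p = 5.38e-09). Both also differed between CrOE EVs and each other EV group, Evc by log2 fold changes of -2.49 and -2.51 and Gpr161 by 0.98 and 1.17. Ift172, a carrier of cargo along the cilium, rose with CrOE EVs from 42.9 ± 1.51 to 82.7 ± 1.82 CPM and with shCon EVs to 62.4 ± 1.59. Ift88 and Kif3b, of the same transport system, rose by 0.30 and 0.23 on the log2 scale with shCr EVs, and Iqce, an anchor of the Evc complex, by 0.48 with shCon EVs (adjusted p = 0.00517, 0.00392 and 0.0114).

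Of 19 genes that process or degrade Gli proteins, 2 were higher and 8 lower with shCon EVs, 0 and 7 with shCr EVs and 11 and 5 with CrOE EVs. Shares of all genes were 18.0% and 20.2%, 18.4% and 18.8%, and 36.7% and 37.0% in the same order. Csnk1e, a casein kinase, rose with CrOE EVs from 79.4 ± 7.07 to 149.9 ± 5.81 CPM (SD, n = 3; adjusted p = 9.4e-07, edgeR). Some genes of this list are given because of their values and not by the naming rule. Protein kinase A, which marks Gli proteins for processing, had lower transcripts of its catalytic subunit Prkaca (log2 fold change -1.08, adjusted p = 1.22e-10) and regulatory subunit Prkar1a (-0.87, adjusted p = 1.39e-09) with CrOE EVs. Prkacb, its other catalytic subunit in the list, was no call there (-0.02, adjusted p = 0.744). The kinase genes Gsk3a and Gsk3b, which act after protein kinase A on the same proteins, were higher there (0.47 and 0.84, adjusted p = 1.15e-05 and 6.09e-07). Opposite-strand exons overlap 28.3% of the exon bases of Gsk3a and 23.4% of those of Ccnd1.

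**Figure D4:**
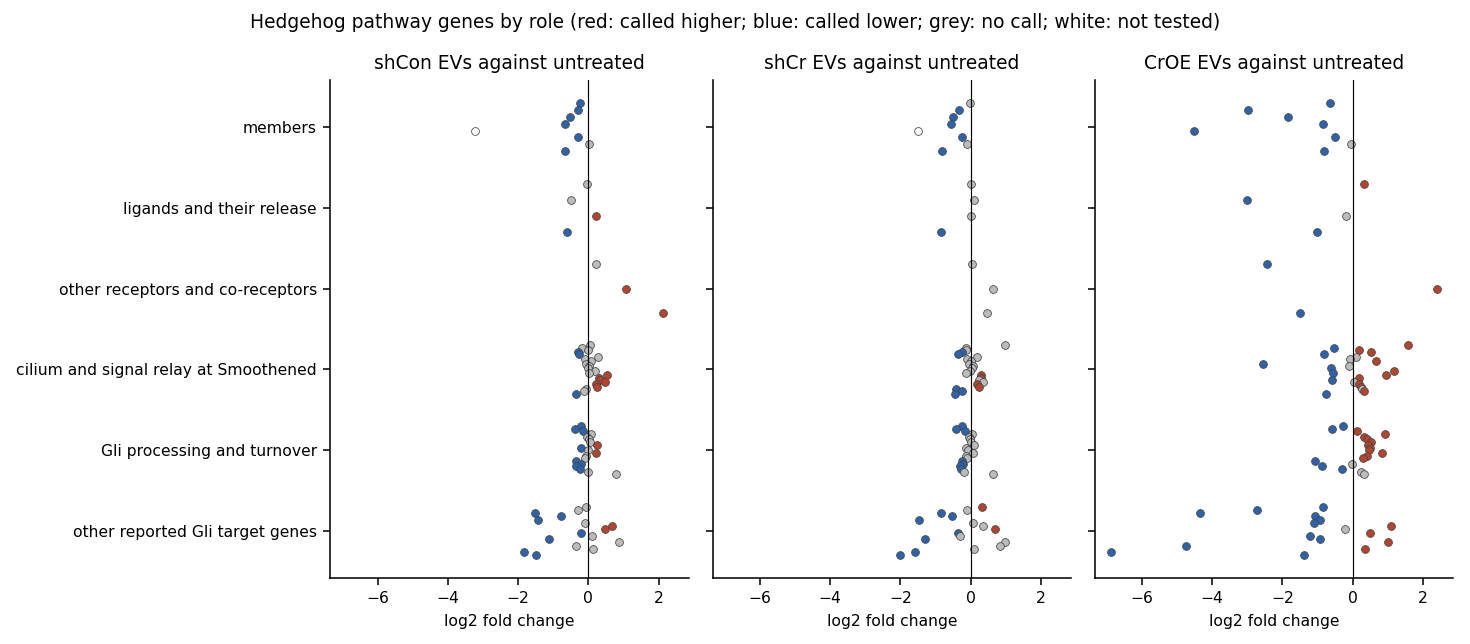
Log2 fold change against untreated cells (horizontal axes) of the members and of 5 lists of other pathway genes that passed the filter, for shCon, shCr and CrOE EVs; each point is a gene, red called higher, blue called lower, grey no call and white not tested. All members but Smo (0.02 with shCon EVs) lie left of 0 in the 3 panels. Of 19 Gli processing genes, 11 are called higher and 5 lower with CrOE EVs, where 36.7% and 37.0% of all genes were.

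Of 17 other reported Gli target genes, 16 passed the filter. With shCon EVs 2 were higher and 7 lower, with shCr EVs 2 and 7, and with CrOE EVs 4 and 11. Among all genes the shares were 18.0% and 20.2%, 18.4% and 18.8%, and 36.7% and 37.0%. Sfrp1, a secreted Wnt antagonist, fell from 138 ± 0.875 CPM (SD, n = 3) to 38.9 ± 2.78 with shCon, 45.9 ± 6.77 with shCr and 1.17 ± 0.118 with CrOE EVs (log2 fold changes -1.82, -1.59 and -6.88; adjusted p = 1.93e-08, 4.16e-08 and 2.28e-13, edgeR). Ccnd1, the cyclin of G1 entry, fell from 288 ± 14.4 to 101 ± 4.97, 162 ± 1.57 and 14.1 CPM in the same order (the CrOE EV libraries were at 13.1, 15.4 and 13.6). Its levels were ordered untreated, shCr, shCon and CrOE EVs, as those of Hhip were. The group means of Ptch1, Gli2, Gli3 and Boc had this order too, and those of Gas1, Smo, Sufu and Gli1 did not. For Ptch1 and Gli2 the shCr and shCon EV libraries overlapped, and for Boc the shCr EV and untreated libraries did. Leaving out 1 library put the log2 difference of Gli2 between shCr and shCon EVs at -0.068 to 0.14. That step is also the contrast that led to the choice of genes. How many of all tested genes had this order was not counted, so whether it is unusual cannot be said.

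Growth and lineage regulators of the target list did not all move one way. Snai1, a repressor of epithelial genes, was at 37.4 ± 2.92 CPM (SD, n = 3) in untreated cells and at 13.3 ± 0.594, 9.23 ± 0.959 and 14.4 ± 1.44 CPM with shCon, shCr and CrOE EVs. Ccne1 and Foxm1, genes of the cell division programme, fell with all 3 kinds of EV, by 1.46 and 1.31 on the log2 scale with shCr EVs. Bmp4, a ligand of the BMP pathway, fell with CrOE EVs from 7.03 ± 0.807 to 1.06 ± 0.353 CPM (adjusted p = 1.58e-08, edgeR). Foxf1, a mesenchymal transcription factor, rose with shCon EVs (log2 fold change 0.48, adjusted p = 0.00374) and shCr EVs (0.69, adjusted p = 0.000244) and was no call with CrOE EVs (-0.23, adjusted p = 0.0728). Foxc2 rose with shCon and CrOE EVs (0.66 and 1.08), and Bcl2, an inhibitor of cell death, rose with shCr EVs (0.32, adjusted p = 0.0111) and fell with CrOE EVs (-0.83, adjusted p = 2.46e-06).

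The genes whose pattern over the 12 libraries was most like that of Hhip were found among 11564 tested genes, by the root-mean-square difference of log2 CPM centred on each gene's mean. The closest were Id3 (0.34 log2 units), Cck (0.43), Atoh8 (0.46) and U90926 (0.47), and the same 4 led with median-of-ratios scaling. Id3, an inhibitor of helix-loop-helix transcription factors, was at 89.1, 105 and 96.7 CPM in untreated cells, 9.55, 10.6 and 10.4 CPM with shCon EVs, 20.8, 22.8 and 23.0 CPM with shCr EVs and 4.34, 4.71 and 4.21 CPM with CrOE EVs. Its 4 groups did not overlap and had the order of Hhip. Cck, the gene of the peptide cholecystokinin, averaged 31.4, 3.49, 5.99 and 0.838 CPM in untreated cells and with shCon, shCr and CrOE EVs. Atoh8, a helix-loop-helix factor, averaged 25.2, 4.98, 9.55 and 1.03 CPM. The likeness is a description over libraries that fall into 4 groups and carries no test.

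**Figure D5:**
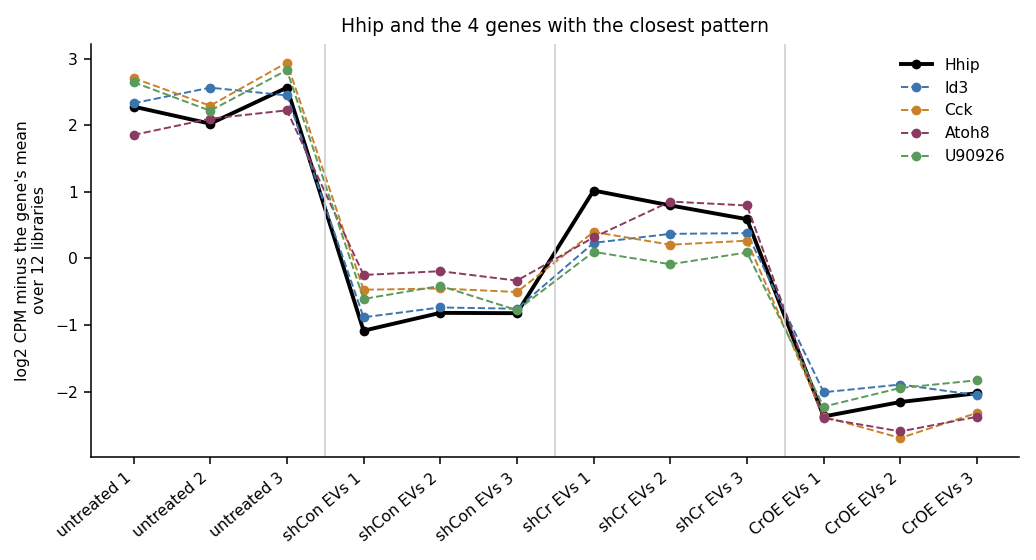
Log2 CPM minus the gene's mean over the 12 libraries (vertical axis) for Hhip (black line) and the 4 genes with the smallest root-mean-square difference from it (dashed lines: Id3, Cck, Atoh8 and U90926), in each library. All 5 are highest in untreated cells, lowest with CrOE EVs and higher with shCr than with shCon EVs.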

How the data were processed

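RNA of 12 libraries (4 groups of 3) was poly(A)-selected and made into directional libraries, per the labels' protocols. Gene-level estimated counts, unscaled between libraries, were deposited by the authors; 39.8% of its values are not whole numbers. The submitters' processing notes name featureCounts and mm39; options, annotation, version and use of strand are not given in the sources used here. Columns were matched to samples by name, those headed with the protein's name alone to the CrOE samples by elimination.

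Values were rounded. Genes were filtered with filterByExpr (14279 kept), scaled by TMM and tested with edgeR 4.0.16 (R 4.3.3), glmQLFit and glmQLFTest, in 1 model of 12 libraries with a mean per group; the fixed design had named counts. Benjamini-Hochberg adjustment ran over all tested genes. SEs were derived from the F statistic. Alternatives included DESeq2 1.42.0. The test was run on simulated counts with 200 genes changed in the CrOE EV group and 1 spread shared by all genes. Of 50 genes each changed 1.5, 2, 4 and 8-fold, 35, 44, 46 and 48 were recovered. Far fewer genes were changed there than the 73.7% called in the data, so the simulation does not check that setting. Intervals and floors cover counting and library spread only, since PCR copies were not separated. GENCODE M21 (GRCm38) gave exon lengths and overlaps, and 70 of 70 other pathway genes were matched by symbol, 1 through an older symbol.

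The members and lists were chosen with earlier results of these data known. Genes named outside the members were all ligands, receptors and co-receptors, and in each comparison with untreated cells up to 4 rises and 4 falls, the largest among called genes whose libraries did not overlap and whose average log2 CPM was 1 or more. Some genes of this rule are not reported here. Likeness to Gli1 was not computed, as it did not pass the filter.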

Additional observations from a re-analysis of the deposited data

How the results depend on the processing

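Of the recomputed fold changes of members, 583 kept their side of the threshold, or moved by less than 1 SD where untested. A further 12 became calls, 5 calls were lost and 0 calls reversed direction. Reversal was counted only for calls. Some fold changes without a call changed sign, such as Boc with shCr EVs against untreated cells (-0.043 to 0.037 without 1 library). A fold change of at least 2 left 863 genes called for shCon, 897 for shCr and 4245 for CrOE EVs against untreated cells, 3884 and 4223 for CrOE against shCon and shCr EVs, and 108 for shCr against shCon EVs. It left 0, 0, 3, 2 and 2 members lower in the first 5 of these, with 2, 0, 4, 2 and 2 other pathway genes higher and 5, 4, 14, 9 and 10 lower. A model of only the groups compared gave 641 genes for shCr against shCon EVs, 7 members lower for CrOE against shCon EVs and 3 other pathway genes higher with shCr EVs. Smo was a call for CrOE against shCon EVs only in that model (adjusted p = 0.0372, edgeR). With no low-count filter 1 member, Gli1, was higher for CrOE against shCr EVs. Leaving out 1 library at a time gave 632 to 1396 genes for shCr against shCon EVs (688, 632 and 666 without shCon EV replicate 1, 2 or 3), 0 to 1 members higher for CrOE against shCr EVs (1, Gli1, without shCr EV replicate 1) and against untreated cells (1, Gli1, without untreated replicate 2; adjusted p = 0.0221), and 4 to 12 other pathway genes higher with shCr EVs. The cause of these changes was not tested.

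The replicate numbers gave no sign of pairing: deviations from group means correlated at -0.20 to 0.32 between same-numbered libraries, above 0.1 in 5 of 18 pairs, and 4 of 12 libraries correlated best with their own number. With the replicate number as a block, Sufu was a call for CrOE against shCon EVs (adjusted p = 0.0382, edgeR), and no other call of a member changed. The 7-letter GLI core gave 0 of 7 members, as the motif did. Depth limits Gli1, which had at most 12 counts in a library, and the ligands.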

Other observations

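Replicate 1 with shCr EVs was the lowest of its group for 37 of the 72 pathway genes that passed the filter, and for 41.7% of all tested genes; replicates 2 and 3 were lowest for 10 and 25. Genes are given here because of their values. Iqce was at 24.0 CPM there and at 35.9 and 35.0 CPM in its replicates, and Ift172 was at 43.1 CPM against 58.5 and 57.4 CPM. Some other cilium genes did not share the gap or went the other way: Arl13b was at 27.0 CPM against 27.1 and 26.8 CPM, and Dync2h1 at 25.5 CPM against 18.8 and 18.7 CPM. Gli2 and Foxm1 were lower in replicate 1, at 31.4 CPM against 43.0 and 40.3 CPM, and at 14.5 CPM against 19.7 and 19.1 CPM. Hhip went the other way and was highest in that library, at 17.6 CPM. Mitochondrially encoded genes held 0.622% of the counts of that library and 1.44% and 1.70% of those of its replicates.

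Untreated replicate 2 was the lowest untreated library for 34 of the 72 pathway genes, among them Hhip, Ptch1, Gli3 and Gas1, and for 40.2% of all tested genes. Untreated replicate 1 was the lowest for 31 of the 72, which also held 4 members. Without untreated replicate 2 the log2 fold change of Hhip with CrOE EVs was -4.64.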
